A study of Rattus norvegicus with 6 samples.

Results

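Satellite glial cell markers are described here in rat trigeminal ganglia, through 10 genes taken by symbol from the deposited count table of 29884 genes: Fabp7, Kcnj10, Glul, Slc1a3, Cdh19, Ednrb, Ptprz1, Sparcl1, S100b and Apoe. All 10 were present in the table and all 10 passed the filter on low counts, which left 16478 genes for testing. RNA-seq was performed on 6 samples of whole ganglion from wild type rats. The 3 injury samples came from rats with chronic constriction of the infraorbital nerve (CCI-ION), which models trigeminal neuralgia. The 3 conduit samples were from rats with the same constriction that then received SFM-Gel-light @NGC, a light-driven gel nerve conduit. Both groups therefore carried the nerve injury, and uninjured ganglia were not analysed here. The labels place injury samples 1, 2 and 3 at days 14, 15 and 16 after injury and conduit samples 1, 2 and 3 at days 17, 18 and 19, so day and group cannot be told apart if these are sampling days. The labelled day goes up by 1 with each sample in label order, and whether it is the day of sampling is not known. The labels give injury samples 1 and 2 as batch 1, injury sample 3 and conduit sample 1 as batch 2, and conduit samples 2 and 3 as batch 3. Strain, age and sex are not given in the labels used here, nor is it said whether samples come from separate animals, so p-values measure the spread between these samples, which may be technical.

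Satellite glia wrap the cell body of each sensory neuron in the ganglion and control what surrounds it. They take up potassium and glutamate released by the neuron, turn glutamate into glutamine, and bind and pass on lipids, much as astrocytes do in the brain. After nerve injury they are known to become reactive, with more of the filament protein Gfap and more coupling through the gap junction protein Gja1. None of the markers is exclusive to this cell. Slc1a3, Kcnj10, Glul, Fabp7, Ptprz1, Sparcl1 and Ednrb are also made by astrocytes, S100b and Cdh19 by Schwann cells, Apoe by macrophages and Sparcl1 by cells of blood vessels. In bulk ganglion, more cells of a type and more RNA per cell cannot be told apart.

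Promoter windows are shown for Cdh19, the marker with the smallest p-value in the comparison, and for Slc1a3 and Kcnj10, which were highest in the same libraries. The windows are the 250 bases before the first start site listed for each gene by RefSeq on build GRCr8, printed 5′ to 3′ on the gene's strand. The table held a window for 9 of the 10 markers, the exception being Ptprz1. Both strands were searched for ACAAAG and ACAATG, words recognised by SOX family factors such as the glial factor SOX10. Capitals mark a match.
Cdh19 chr13:28533754-28534003, minus strand: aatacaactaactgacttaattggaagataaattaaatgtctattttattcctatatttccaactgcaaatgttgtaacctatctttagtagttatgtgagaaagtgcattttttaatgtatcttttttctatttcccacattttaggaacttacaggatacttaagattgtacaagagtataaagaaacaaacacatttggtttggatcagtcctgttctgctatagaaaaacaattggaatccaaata
Slc1a3 chr2:59557809-59558058, minus strand: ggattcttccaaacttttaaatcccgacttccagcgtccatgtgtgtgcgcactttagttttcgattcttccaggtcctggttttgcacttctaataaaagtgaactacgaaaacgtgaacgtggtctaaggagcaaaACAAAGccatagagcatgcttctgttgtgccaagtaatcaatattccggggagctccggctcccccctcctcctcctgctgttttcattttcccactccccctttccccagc
Kcnj10 chr13:87334260-87334509, plus strand: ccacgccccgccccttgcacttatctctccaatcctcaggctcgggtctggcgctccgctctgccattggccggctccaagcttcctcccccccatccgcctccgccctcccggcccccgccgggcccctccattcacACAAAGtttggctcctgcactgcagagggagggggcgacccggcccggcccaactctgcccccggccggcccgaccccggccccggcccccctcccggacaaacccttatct
The word ACAAAG was found in 2 of the 9 windows, those of Slc1a3 and Kcnj10, and in both it began 112 bases before the listed start. It was present in 16.3% of all 33469 windows of this length. ACAATG was in 0 of the 9 windows and in 11.1% of all windows. The windows differed in base composition, with G and C making up 28.4% of the bases for Cdh19, 48% for Slc1a3 and 72.4% for Kcnj10. A match is a description of these letters and does not show binding.

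Each library held between 40.2 M and 41.9 M counts. Markers of sensory neurons summed to between 19267 and 27385 CPM (a gene's reads scaled to library size, here by TMM) and were present in every library, as the tissue label implies. Genes of other tissues differed between libraries. Skeletal muscle genes summed to 7760 CPM in conduit sample 2, to 423 in injury sample 1 and to at most 16.1 in the others. Markers of oligodendrocytes, the myelin-forming cells of the central nerve root, summed to 362, 183 and 695 CPM in injury samples 1 to 3 and to 685, 62.3 and 93.3 in conduit samples 1 to 3.

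Compared per length of transcript, the markers spanned a wide range of levels. Over all 6 libraries, as mean ± SD, Apoe stood at 3076 ± 283 FPKM (counts scaled by gene length and library total) and S100b at 1121 ± 128 FPKM. Apoe was between the 9th and the 13th most abundant gene of the table in each library. Sparcl1 at 147 ± 26.9 and Glul at 126 ± 11.1 FPKM followed, with overlapping ranges. Fabp7 stood at 57.1 ± 15.6 FPKM, below every Glul value and above every Kcnj10 value. Kcnj10 at 27.5 ± 5.34, Ednrb at 21.8 ± 3.30 and Cdh19 at 18.1 ± 3.23 FPKM came next; every Kcnj10 value was above every Cdh19 value, while Ednrb overlapped with both. The lowest were Ptprz1 at 8.66 ± 1.57 and Slc1a3 at 8.02 ± 2.65 FPKM, whose ranges also overlapped. The plot of FPKM by library shows these steps.

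**Figure D1:**
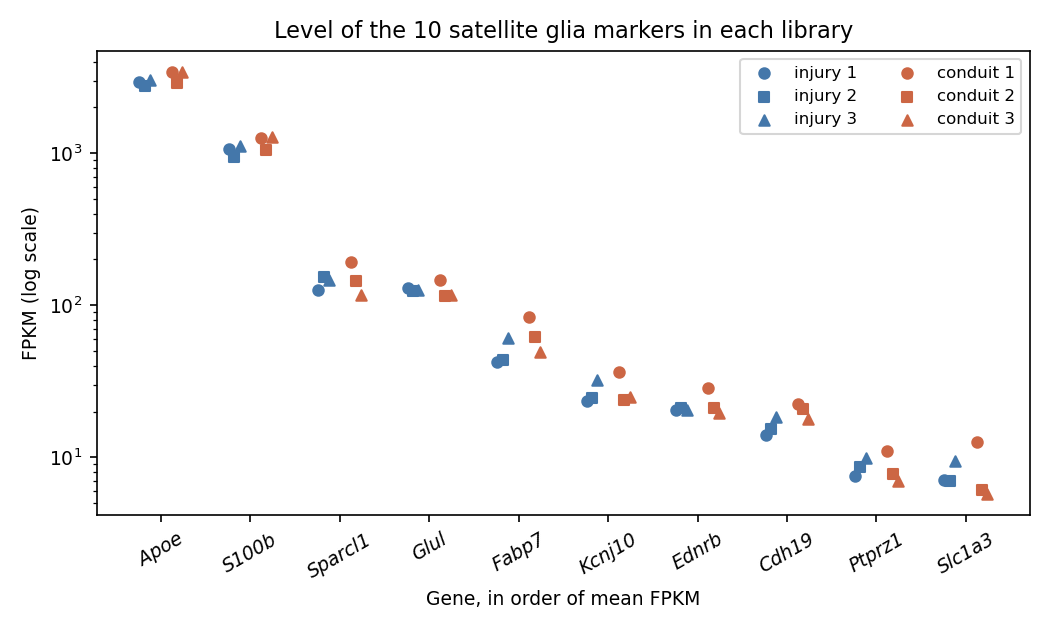
FPKM on a log axis for the 10 satellite glia markers, in order of their mean. Each point is 1 library, with injury in blue and conduit in orange, and circles, squares and triangles for samples 1, 2 and 3. Levels run from Apoe at 2751 to 3428 FPKM down to Slc1a3 at 5.72 to 12.7, and conduit sample 1 is the highest point for 9 of the 10 genes, all except S100b.

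Whether treatment of the constricted nerve came with another level of these markers in the ganglion was asked by comparing the 3 conduit with the 3 injury libraries in a fit over all genes. All 10 markers had a fitted log2 fold change above 0 in conduit, between 0.039 for Ptprz1 and 0.46 for Fabp7, where 50.5% of all tested genes lay above 0; on log2 FPKM, which has no TMM scaling, 7 of the 10 did and Glul, Slc1a3 and Ptprz1 did not. Their median was 0.17 (0.0017 over all tested genes). No marker passed the threshold: edgeR's quasi-likelihood test called 0 of 10 at an adjusted p under 0.05, against 1 of 16478 genes (0.00607%). DESeq2 called 0 of 10, with 1.19% of its tested genes called, and limma-voom 0 of 10. At an unadjusted edgeR p under 0.05, 1 marker (Cdh19) was higher, with 2.99% of all genes called higher by that rule, and 0 were lower. Every conduit library was above every injury library for 2 markers, Cdh19 and Apoe, and for 5.41% of all genes. Values below are TMM-scaled CPM, and groups are given as mean ± SD over n = 3 libraries.

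**Figure D2:**
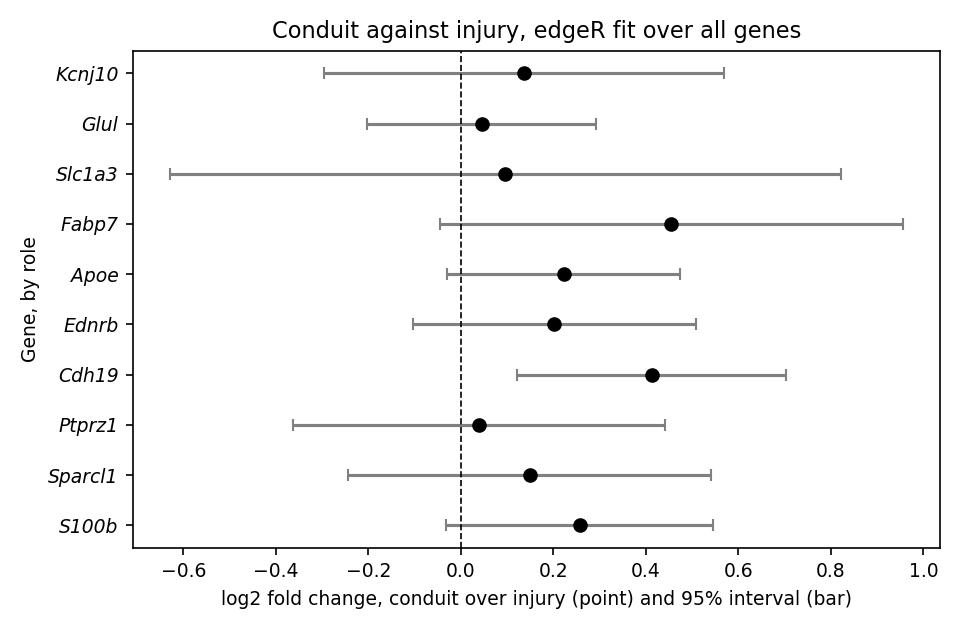
Log2 fold change of conduit over injury (points) with its 95% interval (bars) for the 10 markers in the edgeR fit. All 10 points lie above 0 with TMM scaling (7 of 10 on log2 FPKM), and the interval leaves out 0 for Cdh19 alone, at 0.12 to 0.70.

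Kcnj10 encodes the inward rectifier Kir4.1, the main path by which satellite glia take up potassium. It measured 129, 126 and 170 CPM in injury samples 1 to 3 and 193, 133 and 141 CPM in conduit samples 1 to 3. Both batch 2 libraries were the highest, and the groups overlapped. The log2 fold change was 0.14 (SE 0.18; 95% interval -0.30 to 0.57), with edgeR adjusted p = 0.99981.

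Of the genes that handle glutamate, Slc1a3 encodes the uptake transporter GLAST and Glul the enzyme glutamine synthetase. Slc1a3 measured 28.5, 26.0 and 36.7 CPM in the injury libraries and 49.3, 24.5 and 23.7 CPM in the conduit libraries. Conduit sample 1 was above every injury library and the other conduit libraries were below every injury library, so the conduit values spread over a 2.08-fold range that enclosed the injury group. Its log2 fold change was 0.096 (SE 0.30; 95% interval -0.63 to 0.82). Glul measured 485, 435 and 451 CPM in the injury libraries and 529, 434 and 451 CPM in the conduit libraries. It varied least of the 10, by 1.22-fold between the lowest and highest library, with a log2 fold change of 0.045 (SE 0.10; 95% interval -0.20 to 0.29). As a ratio of conduit to injury, the interval for Glul runs from 0.869 to 1.23.

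The lipid carriers are Fabp7, a fatty acid binding protein of glia, and Apoe, the apolipoprotein that moves cholesterol between cells. Fabp7 measured 25.9, 25.1 and 35.9 CPM in the injury libraries and 49.9, 38.0 and 31.3 CPM in the conduit libraries. It averaged 29.0 ± 6.02 CPM with injury alone and 39.7 ± 9.42 with the conduit, and injury sample 3 exceeded conduit sample 3. Its log2 fold change of 0.46 was the highest among the markers (SE 0.21; 95% interval -0.046 to 0.96), with edgeR adjusted p = 0.989. Apoe measured 3980.4, 3497 and 3952 CPM in the injury libraries and 4523, 3993 and 4814 CPM in the conduit libraries. The groups were separate by a narrow margin, since conduit sample 2 lay just above injury sample 1. The log2 fold change of Apoe was 0.22 (SE 0.11; 95% interval -0.030 to 0.47), with edgeR adjusted p = 0.99981.

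Among the surface proteins, Cdh19 is a cadherin of the neural crest glial lineage, Ednrb the endothelin B receptor and Ptprz1 a receptor phosphatase bound by pleiotrophin. Cdh19 measured 91.3, 93.2 and 116 CPM in the injury libraries and 143, 137 and 120.1 CPM in the conduit libraries. All 3 conduit libraries were above all 3 injury libraries, with injury sample 3 and conduit sample 3 closest to each other. It averaged 100.1 ± 13.6 CPM with injury alone and 133 ± 11.7 with the conduit, 1.33-fold higher (95% interval 1.09 to 1.63). Its log2 fold change was 0.41 (SE 0.12) and its edgeR p-value the 271st smallest of all genes tested, which gave an adjusted p = 0.746, so it did not pass. DESeq2 gave an adjusted p = 0.156 for Cdh19.

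Ednrb measured 91.7, 89.0 and 87.8 CPM in the injury libraries and 124, 95.1 and 90.1 CPM in the conduit libraries. The injury libraries lay within a narrow range, conduit sample 1 stood apart, and conduit sample 3 was below injury sample 1. Its log2 fold change was 0.20 (SE 0.13; 95% interval -0.10 to 0.51). Ptprz1 measured 76.4, 82.8 and 97.3 CPM in the injury libraries and 109.5, 80.1 and 73.9 CPM in the conduit libraries, with a log2 fold change of 0.039 (SE 0.17; 95% interval -0.36 to 0.44). As for Slc1a3, the highest and the lowest Ptprz1 value were both in conduit.

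The remaining markers are Sparcl1, a secreted matrix protein known for its part in synapse formation, and S100b, a calcium-binding protein of glia. Sparcl1 measured 340.0, 387 and 383 CPM in the injury libraries and 509, 395 and 327 CPM in the conduit libraries, and conduit again held the highest and the lowest value. Its log2 fold change was 0.15 (SE 0.17; 95% interval -0.24 to 0.54). S100b measured 1773, 1481 and 1785 CPM in the injury libraries and 2043, 1770.4 and 2207 CPM in the conduit libraries. Injury sample 2 was the lowest, conduit sample 3 the highest, and conduit sample 2 fell within the injury range. Its log2 fold change was 0.26 (SE 0.12; 95% interval -0.032 to 0.55), with edgeR adjusted p = 0.99981.

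The 10 markers did not vary as one across the libraries. On TMM-scaled CPM, conduit sample 1 was the highest library for 8 of them, all but S100b and Apoe. Of all tested genes, 19.3% were highest in that library. The markers come from the same libraries and are not independent of each other. S100b and Apoe were highest in conduit sample 3, the library in which Slc1a3, Ptprz1 and Sparcl1 were lowest. Kcnj10, Slc1a3 and Ptprz1 had their 2 highest values in the batch 2 libraries, as did 6.27% of all genes. Injury sample 2 was lowest for Fabp7, Kcnj10, S100b and Apoe. The map of deviations shows the groupings.

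**Figure D3:**
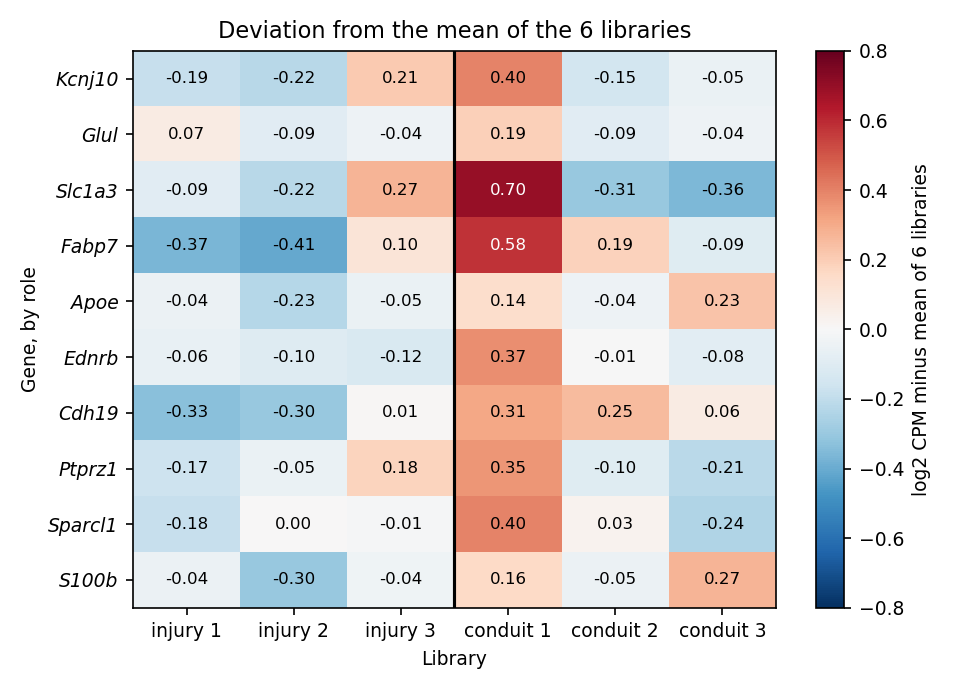
Log2 CPM of each marker minus its mean over the 6 libraries, by library (columns) and gene (rows, by role), with the value written in each cell. Conduit sample 1 is above the mean for all 10 markers, from 0.14 for Apoe to 0.70 for Slc1a3, and conduit sample 3 ranges from -0.36 for Slc1a3 to 0.27 for S100b.

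Much of the difference went with 1 library. Without conduit sample 1 the median log2 fold change was 0.0072, and 5 of the 10 markers were below 0: Slc1a3 at -0.33, Ptprz1 at -0.15, Kcnj10 at -0.048, Glul at -0.045 and Sparcl1 at -0.036. Fabp7 was then at 0.26 and Ednrb at 0.050. Cdh19, S100b and Apoe stayed at 0.36, 0.25 and 0.21 without that library. With each library left out in turn, Cdh19 ranged from 0.36 to 0.53, S100b from 0.17 to 0.35 and Apoe from 0.16 to 0.30. In batch 2, with 1 library per group, all 10 markers were higher in conduit sample 1 than in injury sample 3, with a median log2 difference of 0.27 and values between 0.17 for Ptprz1 and 0.49 for Ednrb. A fit with batch as a term, which takes its group difference from batch 2 and its spread from batches 1 and 3, gave the same median of 0.27 and called 0 markers (edgeR adjusted p = 1 for all 10). By an unadjusted p under 0.05 that fit had Ednrb alone, at 0.49, and Cdh19, at 0.30, was no longer past it. With both batch 2 libraries left out, which compares batch 1 with batch 3, the median was 0.069, with Cdh19 at 0.48, Fabp7 at 0.44, S100b at 0.29 and Slc1a3 at -0.18. No marker passed the edgeR threshold in any of these fits.

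**Figure D4:**
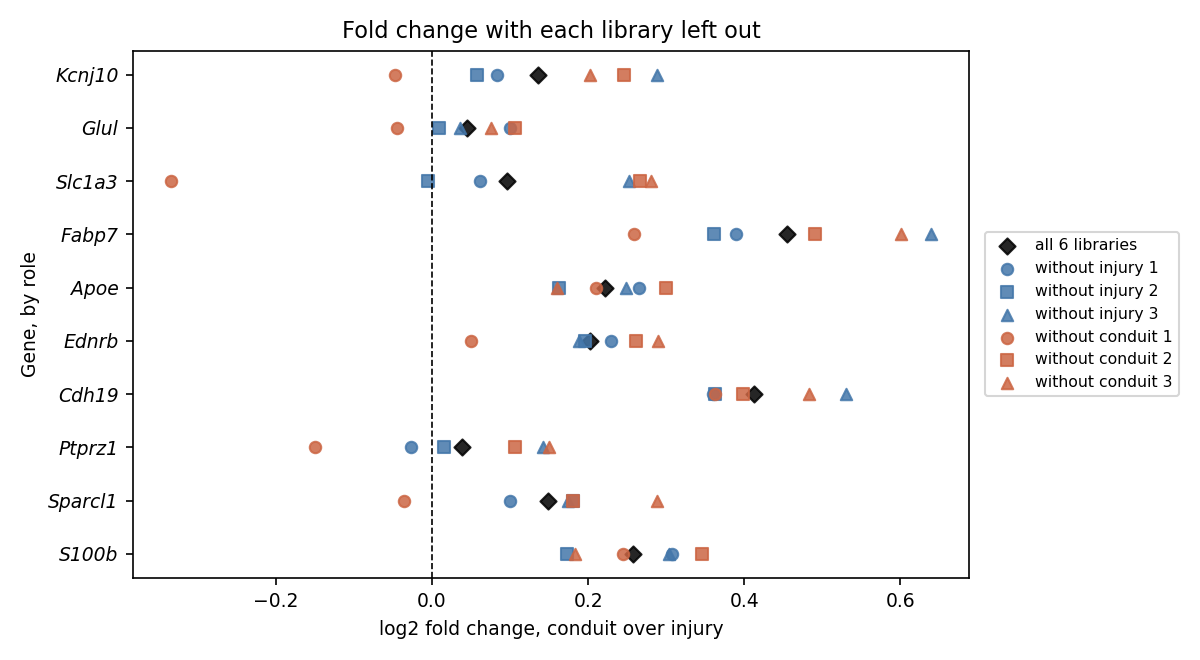
Log2 fold change of each marker with all 6 libraries (black diamonds) and with 1 library left out (blue for injury, orange for conduit; circles, squares and triangles for samples 1, 2 and 3). The orange circles, without conduit sample 1, lie below 0 for Kcnj10, Glul, Slc1a3, Ptprz1 and Sparcl1, while every point for Fabp7, Apoe, Ednrb, Cdh19 and S100b lies above 0.

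Markers of the central nerve root were high in the batch 2 libraries, where Slc1a3, Kcnj10 and Ptprz1 were high too. Of the 8 oligodendrocyte genes, all had their 2 highest values in the batch 2 libraries, and of 10 astrocyte genes 7 did, beside 6.27% of all tested genes. The pattern was not particular to these lists. It held for 7 of 12 genes shared by satellite glia and Schwann cells, 5 of 15 for glutamate and GABA and 4 of 12 for potassium and water. Of the myelinating Schwann cell genes 2 of 12 had it, and of the sensory neuron genes 0 of 12. The astrocyte list summed to 989, 759 and 1122 CPM in injury and to 1270, 581 and 705 CPM in conduit. No gene of either list was at 0 in any library. Gfap, listed as an astrocyte gene and also made by reactive satellite glia, measured 288, 187 and 376 CPM in the injury libraries and 513, 69.5 and 107 CPM in the conduit libraries. Mog, a surface protein of oligodendrocyte myelin, measured 17.4, 9.96 and 33.4 CPM in the injury libraries and 34.3, 1.48 and 2.76 CPM in the conduit libraries. Between the batch 2 libraries the oligodendrocyte sum was 695 CPM in injury sample 3 and 685 in conduit sample 1. The median log2 difference, conduit sample 1 minus injury sample 3, was 0.020 for oligodendrocyte, 0.29 for astrocyte and 0.27 for satellite glia genes. Other lists lay on both sides of these. Macrophage genes were at 0.95, fibroblast genes at 0.94 and myelinating Schwann cell genes at 0.40, but sensory neuron genes at -0.20 and erythroid genes at -2.54. The part of central root tissue in the levels of Slc1a3, Kcnj10 and Ptprz1 was not tested.

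Other cells that share a marker also differed between the libraries. Macrophage genes summed to 99.8, 151 and 126 CPM in injury and to 253, 118 and 111 CPM in conduit, with conduit sample 1 the highest. Apoe, which macrophages make, was highest in conduit sample 3, where the macrophage sum was 111 CPM. Endothelial genes summed to between 248 and 306 CPM in injury and to 357, 327 and 250 CPM in conduit. Sparcl1 shared this order within the conduit group, but so did Fabp7, Slc1a3, Cdh19, Ednrb and Ptprz1. The macrophage sum had it too, as did the sum of fibroblast genes, at 5995, 4960 and 3535 CPM in conduit. Genes of myelinating Schwann cells, which also contain S100b, summed to 37650, 30725 and 36802 CPM in injury and to 50399, 45105 and 51527 CPM in conduit. The median log2 fold change of that list was 0.48. For 10 of its 12 genes the groups were separate, with conduit above injury, against a share of 5.41% among tested genes. An unadjusted edgeR p under 0.05 was reached by 10, each upward in conduit, against a share of 2.99%. At an adjusted p under 0.05 edgeR called 0 and DESeq2 7, where the DESeq2 share was 1.19%. Apoe ranked all the libraries in the same order as the Schwann cell sum. S100b shared its lowest library, injury sample 2, and its highest, conduit sample 3 followed by conduit sample 1. It differed from that sum in that conduit sample 2 ranked lower and injury sample 3 higher. Cdh19, also made by Schwann cells, had separate groups too, but was lowest in injury sample 1 and highest in conduit sample 1. How far these cells contribute to the marker levels was not tested.

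**Figure D5:**
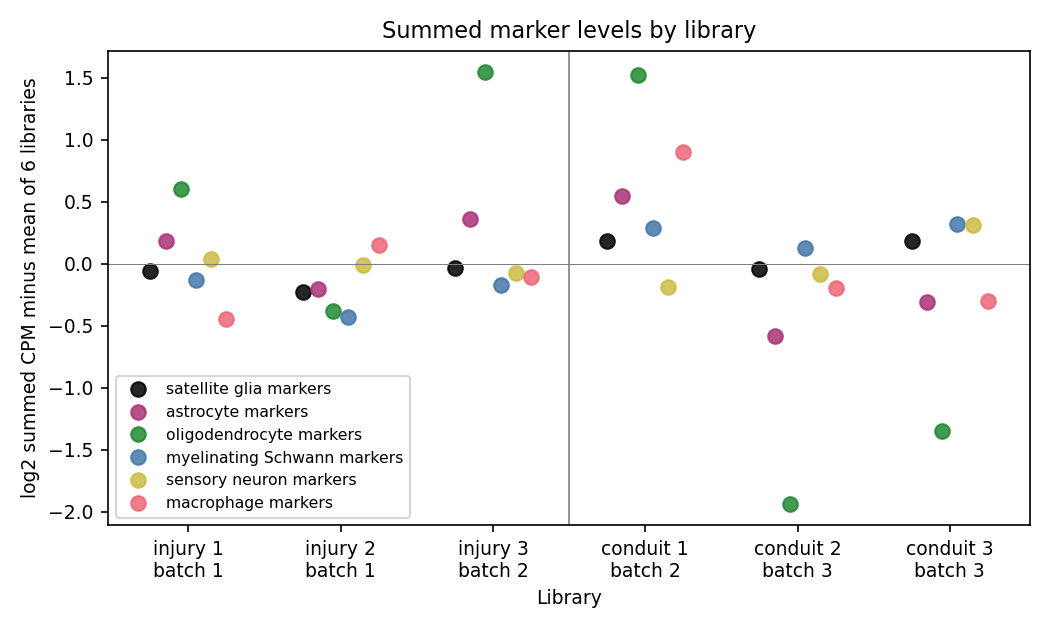
Log2 of the summed CPM of 6 marker lists in each library, minus the mean of the 6 libraries. Points are lists, and the vertical line parts the injury from the conduit libraries. Oligodendrocyte markers spread most, from 62.3 to 695 CPM, and are high in both batch 2 libraries, while the satellite glia sum, most of it Apoe and S100b, stays between 6242 and 8279 CPM.

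Other genes with related roles, not all of them glial, gave few differences. Over all genes, edgeR called 0 genes of the lists below, as did DESeq2 where no count of its own is given. DESeq2 called 1.19% of all its tested genes. Among 12 other genes for potassium and water, edgeR put 1 higher and 1 lower by an unadjusted p under 0.05 (2.36% of all genes were lower by that rule). Fxyd1, a regulator of the sodium pump, averaged 76.4 ± 9.46 CPM with injury alone and 102 ± 14.7 with the conduit (edgeR adjusted p = 0.809). Kcnj16, which encodes a channel subunit that pairs with Kir4.1, averaged 1.98 ± 0.474 CPM with injury alone and 0.851 ± 0.515 with the conduit (edgeR adjusted p = 0.915). Among 15 genes of the glutamate, glutamine and GABA cycle the median log2 fold change was -0.014, again with 1 gene in each direction by the same rule, and with 2 genes called by DESeq2. Maob, a monoamine oxidase of glial mitochondria, was 108, 116 and 114 CPM in the injury libraries and 163, 151 and 134 CPM in the conduit libraries, with no overlap (log2 fold change 0.40; edgeR adjusted p = 0.614). Slc38a5, a glutamine transporter, was 0.796, 2.91 and 2.07 CPM in the injury libraries and 0.555, 0.226 and 0.276 CPM in the conduit libraries (edgeR adjusted p = 0.614).

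Among 15 lipid-binding and lipid-transport genes 1 was higher and 0 were lower at an unadjusted p under 0.05. This was Lpl, lipoprotein lipase, at 20.7 ± 2.05 CPM with injury alone and 32.3 ± 10.1 with the conduit (edgeR adjusted p = 0.891). Among 8 genes of the endothelin system, which acts on Ednrb, 0 were higher and 2 were lower by that rule. These were Kel and Ecel1. Ecel1, a peptidase of the same family as the converting enzymes, was 2.51, 1.99 and 2.02 CPM in the injury libraries and 0.652, 1.36 and 0.577 CPM in the conduit libraries, with no overlap (edgeR adjusted p = 0.748). Edn1, a ligand of the receptor, was 1.24, 2.55 and 2.77 CPM in the injury libraries and 4.37, 2.86 and 2.46 CPM in the conduit libraries, which overlapped. Kel, a peptidase that is also a red cell surface protein, was 2.16, 19.6 and 16.4 CPM in the injury libraries and 0.652, 0.979 and 0.452 CPM in the conduit libraries (edgeR adjusted p = 0.514), and DESeq2 called 1 gene of this list. Beside it, erythroid genes, of which DESeq2 called 7 of 8, summed to between 4441 and 5293 CPM in injury and between 511.5 and 1273 in conduit. For the 8 partners of Ptprz1, among them its ligands Ptn and Mdk, 0 were past an unadjusted p under 0.05 in either direction. Among 12 relatives of S100b and Sparcl1, Sparc alone was, at 2652 ± 61.5 CPM with injury alone and 3103 ± 98.4 with the conduit with no overlap (edgeR adjusted p = 0.824).

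Genes known to mark reactive satellite glia had fold changes on both sides of 0. Of 15 genes, 2 were higher at an unadjusted edgeR p under 0.05, beside 2.99% of all genes, and 0 were lower, beside 2.36%. DESeq2 called 1 of the 15, beside 1.19% of its tested genes. Vim, the filament protein vimentin, measured 1121, 1055 and 1063 CPM in the injury libraries and 1307, 1280.1 and 1314 CPM in the conduit libraries, with no overlap (log2 fold change 0.27, SE 0.076; edgeR adjusted p = 0.716). Nes, nestin, averaged 149 ± 7.39 CPM with injury alone and 179 ± 18.2 with the conduit, also with no overlap (edgeR adjusted p = 0.897). Gfap, given above, had a log2 fold change of -0.30 with a wide 95% interval of -2.25 to 1.64. Gja1, the gap junction protein connexin 43, was 20.7, 37.4 and 35.5 CPM in the injury libraries and 46.9, 19.8 and 17.6 CPM in the conduit libraries (log2 fold change -0.15, SE 0.42), so that conduit held both the highest and the lowest values. Of 12 genes shared by satellite glia and Schwann cells, 11 had a fold change above 0, beside 50.5% of all tested genes. At an unadjusted edgeR p under 0.05, 3 were higher, beside 2.99% of all genes, and 0 were lower: Foxd3, Tfap2a and Cadm4 were the higher ones. Conduit sample 1 was the highest library for 6 of the 12, as for 19.3% of all genes. Foxd3, a neural crest transcription factor, averaged 26.5 ± 3.58 CPM with injury alone and 32.7 ± 0.665 with the conduit (edgeR adjusted p = 0.896). Sox10, the factor that defines the glial lineage, was 175, 175 and 203 CPM in the injury libraries and 201, 184 and 195 CPM in the conduit libraries, with overlapping groups.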

How the data were processed

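RNA-seq counts and FPKM values of 6 rat trigeminal ganglion libraries were used. Per the submitters' processing notes, the tools were fastp, HISAT2, SAMtools, HTSeq and DESeq2 (listed with no role or order) and the build mRatBN7.2; the sources used here give no version, annotation or strand setting. The deposited counts are whole reads per gene symbol, and the FPKM values that the authors deposited are the same counts scaled by gene length and library total (same length in all libraries, within a relative tolerance of 0.0001, for 17994 of 17994 genes checked). FPKM served only to compare levels between genes and as an alternative. RefSeq tables of the later build GRCr8 gave promoter windows; 10 of 10 markers matched by symbol.

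Analyses used R 4.3.3, edgeR 4.0.16, limma 3.58.1 and DESeq2 1.42.0. Genes were kept by filterByExpr (minimum count 10), scaled by TMM and tested by the robust quasi-likelihood F test of conduit against injury without covariates, with Benjamini-Hochberg adjustment over all 16478 genes and a threshold of 0.05. Log2 CPM used a prior count of 2. With 3 against 3 libraries an exact permutation test of 1 value cannot give a p under 0.1. Members and lists were chosen with earlier results of these data known. Named were all markers, up to 3 genes per other list by edgeR p, and Gfap and Gja1; Sox10 was added after its values were seen. Alternatives were other scalings, filters and tools, limma on log2(FPKM + pseudocount), replicate number or batch in the fit, each library left out and batch 2 alone; leaving out batch 2 was added after seeing the data. Tested on simulated data for this comparison (200 genes changed), edgeR found, among 16249 genes, 51% of those changed 2-fold and 90% of those changed 4-fold. Of its 158 calls there, 17 were of unchanged genes, and of 230 calls by DESeq2, 67 were. Changes as small as those fitted for the markers, at most 1.37-fold for Fabp7, were not simulated.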

Additional observations from a re-analysis of the deposited data

How the results depend on the processing

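edgeR, DESeq2, limma-voom and limma called 0 of 10 satellite glia markers in all alternatives that gave a test, and their median log2 fold change ranged from 0.0072, without conduit sample 1, to 0.26 when any 1 library was dropped. These shifts are under the SD of 0.188 between replicates, which itself includes the distance of conduit sample 1 from the other conduit libraries. The 1 gene called over the whole table became 6 with no filter on low counts, 209 with DESeq2, 7 and 3 with limma on log2(FPKM + 1) and log2(FPKM + 0.1), and 19 without the batch 2 libraries, and ranged from 0 to 38 with 1 library left out (0 without conduit sample 3, with 1215 genes at an unadjusted edgeR p under 0.05; 38 and 35 when injury sample 1 or 3 was dropped; 6 when conduit sample 1 was). With the replicate number as a block edgeR called 0 genes (554 at an unadjusted p under 0.05), and with batch as a term 0 (257). No pairing by number was seen: deviations of same-numbered libraries correlated at -0.42, 0.057 and -0.071 for numbers 1, 2 and 3. No injury sample correlated best with the conduit sample of its own number. Each deviation was taken from the mean of its own group of 3 libraries, so this check cannot exclude a pairing. With the block the markers' median was 0.16, and with batch as a term 0.27, where Ednrb and not Cdh19 was at an unadjusted p under 0.05. Without TMM scaling, limma gave Glul -0.014, Slc1a3 -0.020 and Ptprz1 -0.025 on log2(FPKM + 1), and -0.014, -0.030 and -0.030 on log2(FPKM + 0.1); the median over all genes was then -0.038 and -0.053. Without the batch 2 libraries Glul was -0.056, Slc1a3 -0.18, Ptprz1 -0.049 and Sparcl1 -0.012. With 1 library left out, the lowest and highest values were -0.048 and 0.29 for Kcnj10, -0.045 and 0.11 for Glul, -0.33 and 0.28 for Slc1a3, -0.15 and 0.15 for Ptprz1 and -0.036 and 0.29 for Sparcl1; the negative ones came without conduit sample 1 and, for Ptprz1, without injury sample 1 (-0.027) and, for Slc1a3, without injury sample 2 (-0.0053). The cause was not tested.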

Other observations

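Ratios between markers within a library, which do not depend on its scaling, moved over a wider range in conduit than in injury. Slc1a3 had 16.1, 17.6 and 20.5 counts per 1000 S100b counts in injury samples 1 to 3 and 24.1, 13.9 and 10.7 in conduit samples 1 to 3. Slc1a3 counts were 5.89%, 5.99% and 8.13% of Glul counts in injury and 9.32%, 5.65% and 5.25% in conduit, where Glul encodes the enzyme that acts on the glutamate Slc1a3 takes up. Fabp7 counts were 20.1%, 20% and 21.1% of Kcnj10 counts in injury and 25.8%, 28.7% and 22.1% in conduit, so the groups were separate for this ratio, by 1 percentage point at the closest. These ratios were chosen after the values were seen, share markers, and were not tested.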
